A study of Mus musculus with 12 samples.

Results

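Dietary restriction (DR) was compared with both other diets together in the cerebellar cortex of wild-type mice. The comparison rests on 4 DR libraries of 12 libraries in all, set against the other 8, of which 4 came from mice fed ad libitum (AL) and 4 from mice on a ketogenic diet (KD). Each library is 1 male mouse of the F1 hybrid C57BL6J/FVB strain, aged 12 weeks, and diet was the only factor that the labels vary. DR mice received a reduced daily meal at the onset of the dark period after a stepwise start of the restriction, AL mice had unlimited food, and the composition of the ketogenic diet is not given in the sources used here. AL and DR mice were killed at the start of the dark period, the DR mice without their meal of that day, and the killing time and feeding of KD mice are not given. AL and DR mice had been selected for sequencing by RNA quality from a larger number, and how KD mice were selected is not given.

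The question addressed by this comparison is which transcripts stand apart on DR from mice that ate freely and, at the same time, from mice whose diet was changed in another way. Restriction lowers body temperature and blood glucose, raises circulating glucocorticoids and shifts the liver to fat oxidation and ketone production, while a ketogenic diet replaces most carbohydrate by fat. Glucocorticoids act through the glucocorticoid receptor, which binds a palindromic site in DNA, and the main folding helpers of the cell are transcribed under heat shock factor in the cytosol and under the unfolded protein response in the endoplasmic reticulum (ER). In cerebellar cortex most transcripts come from granule cells, whereas Purkinje cells, Bergmann glia and oligodendrocytes supply a smaller share with distinct marker genes.

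Between 31712084 and 40798644 reads were counted on genes per mouse. Totals of the DR mice (mean 35269228) and of the other 8 (mean 37034471) had overlapping ranges (exact permutation test, two-sided, p = 0.339). In principal component analysis of log2 CPM (counts scaled to a common library total) the first component held 17.3% of the variance. DR mice had scores of 18.9 ± 5.53 (SD, n = 4), AL mice of -9.80 ± 10.6 and KD mice of -9.10 ± 10.3 (SD, n = 4 each). All 4 DR mice lay above all 8 others, with 13.7 as the lowest DR score and 4.11 as the highest of the others (two-sided exact permutation test over 495 divisions, p = 0.00404, the smallest it can give). On CPM without log, or with the 500 most variable genes, the first component did not separate DR (p = 0.263 and 0.671 in the same exact test), and the second one did (exact p = 0.00404 each). The markers of the dissected region were in place: granule cell markers summed to 8103 to 8407 CPM on DR, 7969 to 8549 on AL and 8146 to 8459 on KD. Of 9 markers of cerebellar nuclei and brainstem, 6 had at most 7 counts in any mouse, and of 9 markers of choroid plexus and ependyma 3 had at most 9. The other 3 markers of nuclei and brainstem and the other 6 of choroid plexus and ependyma had enough counts to be tested.

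**Figure D1:**
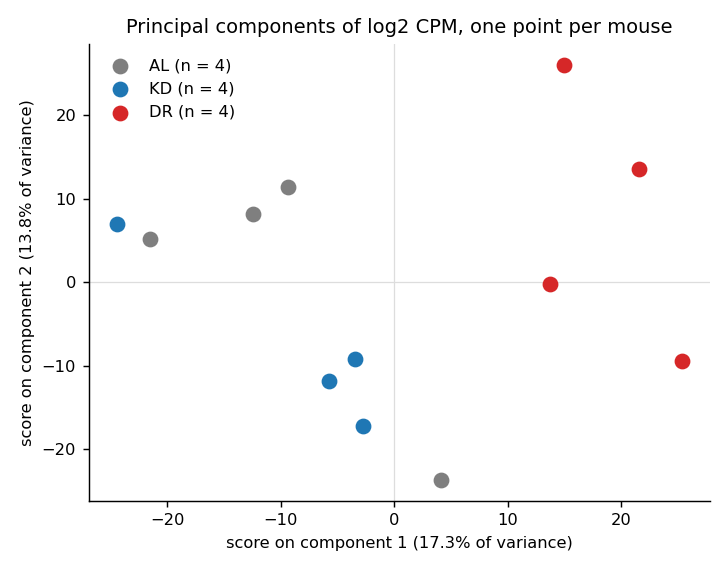
Scores of the 12 mice on the first (x axis) and second (y axis) principal component of log2 CPM, in score units. The 4 DR mice lie between 13.7 and 25.4 on the first component, to the right of all AL and KD mice, whereas the diets overlap on the second.

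Of 19557 genes tested, 1576 (8.06%) were differentially expressed on DR against the mean of both other diets, 768 of them up-regulated (48.7%) and 808 down-regulated (51.3%). A gene was called at a Benjamini-Hochberg adjusted p under 0.05 by the quasi-likelihood test of edgeR, in a single fit of all 12 mice that gives AL and KD equal weight. With scaling by library size alone 999 genes were higher (62.1%) and 610 lower (37.9%), so the balance of directions depends on the scaling. Changes are given below on the log2 scale, DR against the mean of AL and KD unless another pair is named, and most were small. The median size of a called change was 0.27 on the log2 scale, or 1.20-fold, and 1295 called genes changed by less than 0.5, 219 by 0.5 to 1 and 62 by 1 or more. In 842 of the 1576 called genes (53.4%) the 4 DR mice did not overlap with the 8 others, against 1053 of all genes tested (5.38%), above them in 484 (2.47%) and below them in 569 (2.91%). Without DR replicate 3 the count was 895 (440 higher and 455 lower), without DR replicate 1 it was 1054 (547 higher and 507 lower) and without AL replicate 3 it was 1718. In all, 653 genes (41.4%) were called with each of the 12 mice left out in turn.

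Set against each diet on its own in the same fit, DR differed from AL in 862 genes (4.41%, with 379 or 1.94% higher and 483 or 2.47% lower) and from KD in 949 (4.85%, with 474 or 2.42% higher and 475 or 2.43% lower). Both comparisons use the same 4 DR mice. With scaling by library size alone, 57.4% of the genes called against AL and 62.6% of those called against KD were higher on DR, in place of 44.0% and 49.9%. The count against AL was 454 without DR replicate 3, 494 without AL replicate 4, 504 without AL replicate 1 and 570 without AL replicate 2, and the count against KD was 449 without KD replicate 3, 473 without DR replicate 3, 538 without KD replicate 1 and 571 without KD replicate 4. A gene was counted as different from each diet when it moved the same way in both and the larger of the p-values, adjusted over all genes, was under 0.05. By that rule 372 genes (1.9%) stood apart, of which 157 were higher (0.803% of all genes, 42.2% of the called) and 215 lower (1.1% and 57.8%), with 198 and 149 in place of these with scaling by library size alone (57.1% and 42.9%). This count was 154 without DR replicate 3, 171 without KD replicate 3, 190 without KD replicate 1, 198 without AL replicate 4, 202 without AL replicate 1 or DR replicate 1 and 236 without KD replicate 4. KD and AL differed in 0 genes (0.0%) by edgeR, with 841 at an unadjusted p under 0.05 (4.3%), and in 2 genes by DESeq2. Median log2 fold changes of the genes called against the mean of both diets were 0.29 against AL and 0.29 against KD when up-regulated. Those of the down-regulated genes were -0.25 and -0.24. That choice of genes gives AL and KD equal weight and favours similar medians, so their likeness is not a separate result.

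**Figure D2:**
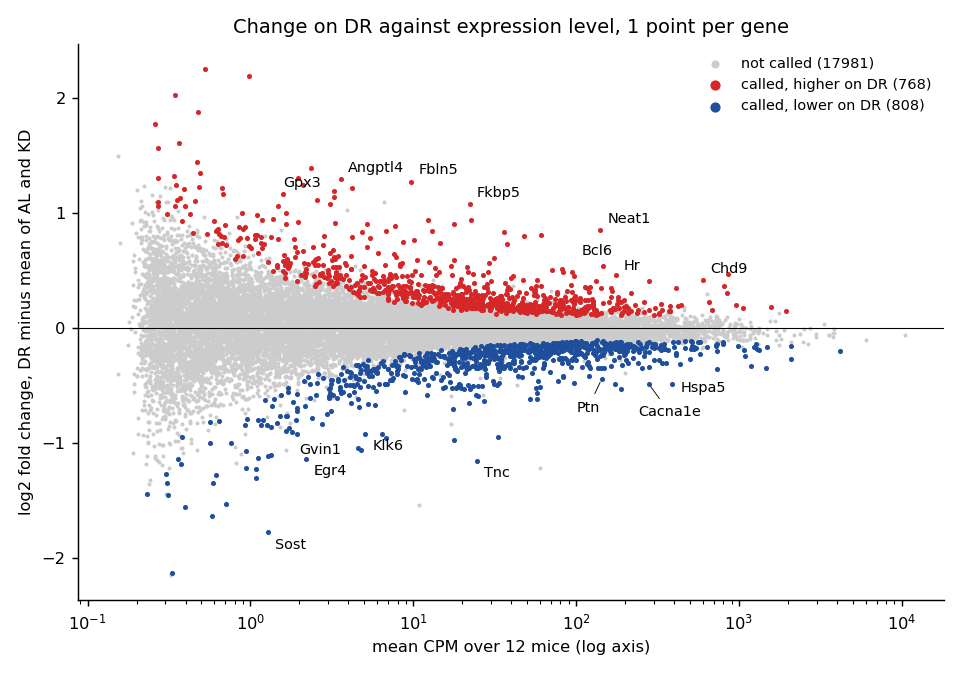
Log2 fold change on DR against the mean of AL and KD (y axis) by mean CPM over 12 mice (x axis, log scale), with 1 point per gene. The 768 genes higher and 808 lower on DR (colour) lie mostly within 0.5 of 0, and the labelled genes are among the leading genes described in the text.

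The strongest up-regulation among genes at 1 CPM or more, with DR mice apart from all others, was found for Ighm, Angptl4 and Fbln5. Fbln5 (ENSMUSG00000021186.9, chr12:101746565-101819055 of GRCm38.p6, minus strand), which encodes fibulin-5, a matrix protein needed for elastic fibres, was at 15.6, 14.9, 19.0 and 14.3 CPM in the 4 DR mice. The same transcript was at 7.54, 6.43, 5.08 and 6.56 CPM in AL mice and 5.77, 6.94, 5.72 and 8.65 CPM in KD mice. Every DR mouse was thus above the highest of the others, and the difference gave a log2 fold change of 1.27 ± 0.11 (standard error) and an adjusted p of 2.72e-06. Angptl4 (ENSMUSG00000002289.16, chr17:33773750-33781830 of GRCm38.p6, minus strand), an inhibitor of lipoprotein lipase that fasting and glucocorticoids induce in other tissues, was at 5.64, 5.52, 6.50 and 6.13 CPM on DR, 1.65, 2.71, 2.78 and 1.68 CPM on AL and 2.23, 2.88, 3.20 and 2.29 CPM on KD. No DR mouse was as low as any other mouse, with a log2 fold change of 1.30 ± 0.14 (standard error) and an adjusted p of 2.89e-05. Gpx3 (ENSMUSG00000018339.11, chr11:54902453-54910377 of GRCm38.p6, plus strand), a secreted glutathione peroxidase, was at 6.33, 5.27, 5.32 and 3.99 CPM on DR, 2.59, 2.63, 1.72 and 1.90 CPM on AL and 2.42, 2.80, 1.64 and 2.497 CPM on KD. Again the groups did not overlap, with a log2 fold change of 1.20 ± 0.15 (standard error) and an adjusted p of 9.1e-05.

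Several of the other leading up-regulated genes were of low abundance. Ighm, the constant region of the immunoglobulin mu chain, was at 2.67 to 4.31 CPM on DR and 0.961 to 2.02 CPM in the other 8 mice, a change of 1.30 (adjusted p = 0.000135). Cyp4f15, a cytochrome P450 of the fatty acid hydroxylase family, was at 2.71 to 3.998 CPM on DR and 1.26 to 2.03 CPM elsewhere, a change of 1.24 (adjusted p = 4.41e-05). Ptk2b, the calcium-responsive tyrosine kinase Pyk2, was at 3.62 to 4.44 CPM on DR and 1.12 to 2.32 CPM elsewhere, a change of 1.12 (adjusted p = 0.000137). The rule that chose these genes required the DR mice to lie apart from the others, so their separation is not a separate result. Tssk5, a kinase known from testis, changed by 1.22 (adjusted p = 0.000415), with AL replicate 3 at 5.37 CPM close to the lowest DR mouse at 5.93 CPM. Actbl2, an actin-like gene, rose by 0.98, and the genes E130111B04Rik, Gm536 and Gm43844 rose by 1.08, 0.91 and 0.91.

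Among abundant genes (at least 100 CPM) chosen by the same rule, Neat1 had the largest increase. This long noncoding RNA (ENSMUSG00000092274.3, chr19:5824708-5845478 of GRCm38.p6, minus strand), the scaffold of nuclear paraspeckles, was at 207, 206, 217 and 171 CPM on DR. AL mice had 105, 102, 115 and 87.5 CPM and KD mice 122, 131, 109 and 118 CPM. The lowest DR mouse was above the highest of the 8 others, with a log2 fold change of 0.85 ± 0.066 (standard error) and an adjusted p of 2.04e-06. Bcl6, a transcriptional repressor, was at 185 ± 26.7 CPM on DR, 135 ± 18.5 on AL and 120.0 ± 8.28 on KD (SD, n = 4 each), a change of 0.54 (adjusted p = 0.000415). Hr, a corepressor of the thyroid hormone receptor, changed by 0.46 (adjusted p = 0.00016), from 137 to 187 CPM in the other mice to 203 to 238 CPM on DR. The chromatin remodeler Chd9 was at 674 to 765 CPM on DR and 494 to 616 CPM elsewhere, a change of 0.42 (adjusted p = 4.41e-05), and the peroxiredoxin-like gene Fam213a changed by 0.41 (adjusted p = 0.000135).

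Among down-regulated genes the largest changes by the same rule were those of Sost, Adamtsl2 and Tnc. Tnc (ENSMUSG00000028364.15, chr4:63959785-64047015 of GRCm38.p6, minus strand), the most abundant of them, encodes tenascin-C, a matrix glycoprotein of developing and injured tissue that Bergmann glia make in cerebellum. Tnc was at 11.1, 16.4, 13.2 and 13.7 CPM on DR, 27.5, 29.8, 36.3 and 31.4 CPM on AL and 30.2, 27.6, 32.5 and 26.1 CPM on KD. The highest DR mouse stayed below the lowest of the others, with a log2 fold change of -1.15 ± 0.093 (standard error) and an adjusted p of 2.04e-06. Sost (ENSMUSG00000001494.6, chr11:101962458-101967015 of GRCm38.p6, minus strand), which encodes sclerostin, an inhibitor of Wnt signaling, had the larger relative change at a lower level. It was at 0.460, 0.562, 0.230 and 0.687 CPM on DR, 1.11, 1.37, 1.81 and 1.74 CPM on AL and 1.71, 1.57, 2.11 and 2.03 CPM on KD, with a log2 fold change of -1.78 ± 0.23 (standard error) and an adjusted p of 0.00016. Egr4, an activity-regulated transcription factor, was at 1.20, 1.37, 0.978 and 1.35 CPM on DR and at 2.37 to 3.20 CPM in the other 8 mice, a change of -1.13 (adjusted p = 0.000103). In all 3 genes the DR mice were below each of the others, which the rule required.

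Gvin1 and Gm4070, near-identical members of a family of very large GTPases that interferon induces, changed by -1.06 (adjusted p = 2.89e-05) and -1.04 (adjusted p = 4.78e-05). Reads of such copies may be divided between them, as for Gm21541 and the chemokine gene Ccl21b (-0.92 and -0.90), so neither pair counts as 2 separate results. Klk6, a secreted protease of oligodendrocytes, was at 2.61, 2.15, 3.31 and 4.59 CPM on DR and 4.63 to 8.02 CPM in the others, so that DR replicate 4 came close to the lowest of them (change -0.92, adjusted p = 0.00382). Ngef, an exchange factor that acts downstream of ephrin receptors, was at 3.24 to 5.03 CPM on DR and 6.05 to 9.55 CPM elsewhere, a change of -0.92 (adjusted p = 0.000202). Alpk2, an alpha kinase, fell by 0.96, Adamtsl2, a matrix protein, by 1.22 and 5430419D17Rik by 1.11 on the log2 scale. By the same rule, the abundant genes with the largest decreases were Hsph1, Hspa5, Aqp4, Cacna1e and Ptn. Ptn, which encodes the growth factor pleiotrophin, was at 111, 119.6, 116 and 116 CPM on DR and 140.5 to 175 CPM elsewhere. Its DR mice lay close together, and the change was -0.44 (adjusted p = 2.72e-05). Cacna1e, the pore subunit of R-type calcium channels, was at 224, 211, 219 and 227 CPM on DR and 276 to 344 CPM elsewhere, a change of -0.48 (adjusted p = 4.02e-05). All 34 leading genes, Fkbp5 among them, kept their call with any 1 mouse left out. They also kept it under every other setting in which they were tested. The rule had chosen them for large changes without overlap in these same mice, so this is not a separate result.

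**Figure D3:**
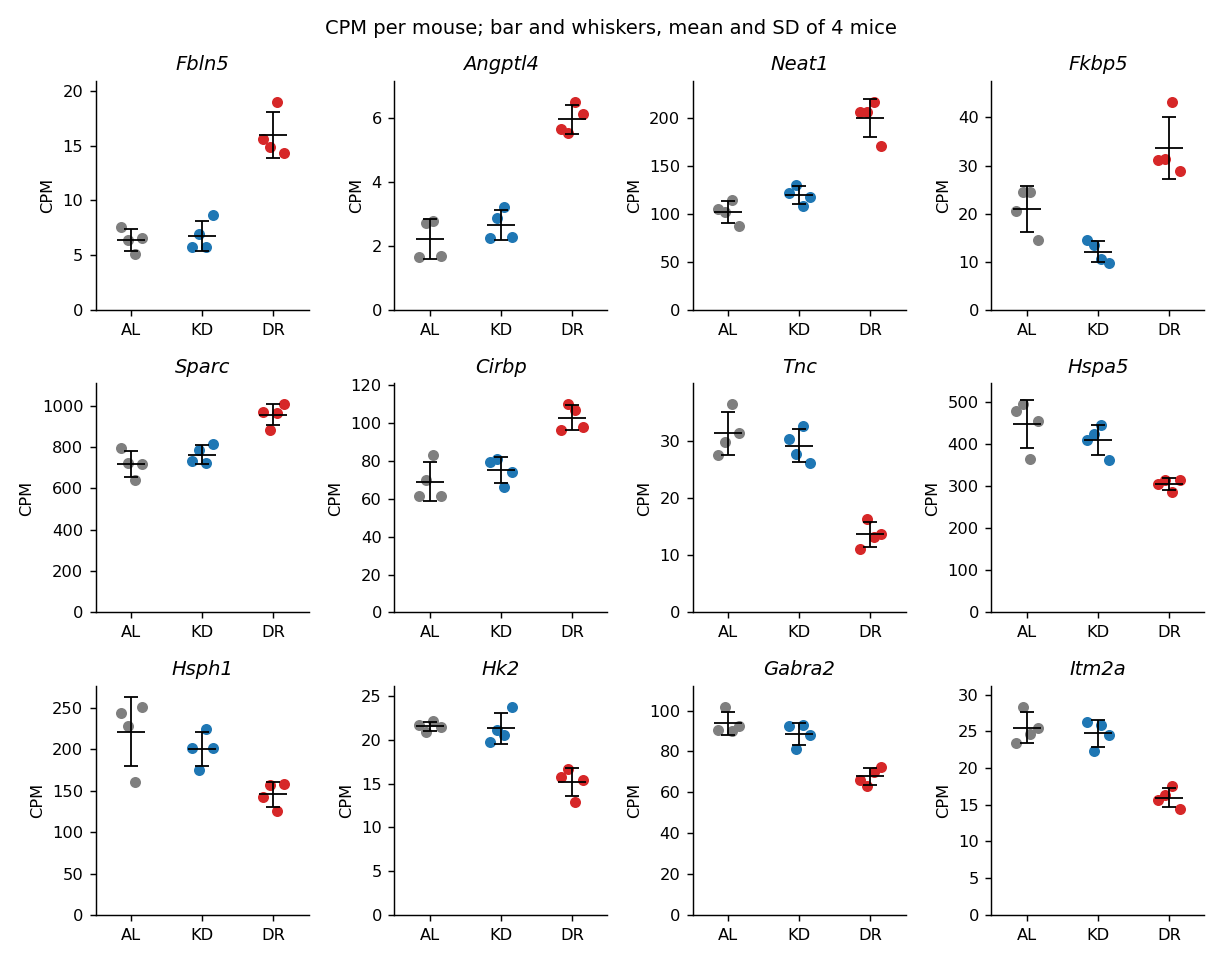
CPM (y axis, from 0) of 12 genes in each AL, KD and DR mouse (points), with the mean and SD of 4 mice (bar and whiskers). Fbln5, Angptl4, Neat1, Fkbp5, Cirbp and Sparc are higher in the DR mice than in all 8 others, and Tnc, Hspa5, Hsph1, Hk2, Gabra2 and Itm2a are lower.

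Of the 36 gene lists, glucocorticoid-responsive genes had the median furthest from 0. Of 24 tested members 14 rose and 0 fell, against 3.93% and 4.13% of all genes, and the median log2 fold change was 0.47 against 0.0043 over all genes. Fkbp5 (ENSMUSG00000024222.17, chr17:28399094-28517527 of GRCm38.p6, minus strand), a co-chaperone that damps the glucocorticoid receptor and is itself its target, was at 31.2, 31.4, 43.2 and 28.9 CPM on DR, 20.6, 24.5, 24.4 and 14.5 CPM on AL and 14.4, 13.4, 10.7 and 9.86 CPM on KD. DR replicate 3 was highest and the KD mice lowest, and the change was a log2 fold change of 1.08 ± 0.13 (standard error) and an adjusted p of 6.52e-05. Cdkn1a, the cell cycle inhibitor p21, was at 52.5, 43.1, 55.1 and 54.0 CPM on DR, 38.4, 43.3, 36.5 and 26.5 CPM on AL and 30.8, 24.2, 25.8 and 23.8 CPM on KD. Its DR replicate 2 lay at the level of AL replicate 2, and the change was 0.73 (adjusted p = 0.00016). Plin4, a lipid droplet coat protein, was at 27.1 to 39.3 CPM on DR, 12.2 to 27.2 CPM on AL and 13.1 to 17.4 CPM on KD, a change of 0.94 (adjusted p = 0.000355). Errfi1, which restrains epidermal growth factor receptors, changed by 0.46 (adjusted p = 0.000229), and Sult1a1, a sulfotransferase, by 0.43 (adjusted p = 0.000241).

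The size of the change in this list differed by the diet it was set against. Median log2 fold changes were 0.34 for DR against AL, 0.60 for DR against KD and -0.30 for KD against AL. Fkbp5 averaged 33.7 ± 6.46, 21.0 ± 4.72 and 12.1 ± 2.18 CPM on DR, AL and KD (SD, n = 4 each). The step from AL to KD was called in 0 members (for Fkbp5, log2 fold change -0.80, adjusted p = 0.649), and 7 members passed against each diet. Map3k6 (0.45 against AL, 1.33 against KD), Zbtb16 (0.36 and 1.25) and Arrdc2 (0.55 and 1.33) were called against the mean of the other diets but not against each of them. Members without a call included Tsc22d3 (0.18, adjusted p = 0.3), Per1 (-0.18, adjusted p = 0.245) and Klf9 (0.12, adjusted p = 0.0749). Mt2 passed (0.52, adjusted p = 0.0486) but 73% of its exonic bases overlap another gene, and it kept its call in 2 of the 12 fits that each left out 1 mouse. The summed level of the 24 members was 1459 to 1644 CPM on DR, 1167 to 1523 on AL and 1029.6 to 1219.7 on KD, so that DR and KD mice did not overlap and DR and AL mice did.

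Promoters of called members were searched for the palindromic glucocorticoid response element, spelled GNACA, any 3 bases and TGTNC here, on both strands from 250 bases before to 50 after the RefSeq transcription start (GRCm38.p6, 16031 promoters of 12547 tested genes). It was found in 0.430% of all these genes, in 11 of 559 up-regulated genes (1.97%) and in 2 of 585 down-regulated genes (0.342%). Among the 12 called members with a promoter in the table, 3 held it. They are shown 5′ to 3′ with the match in capitals, because each pairs a called member with the classical sequence, and their coordinates are those of the bases printed.
Sgk1 (chr10:21993682-21993734, plus strand): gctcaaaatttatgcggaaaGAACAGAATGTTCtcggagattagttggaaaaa
Map3k6 (chr4:133240617-133240669, plus strand): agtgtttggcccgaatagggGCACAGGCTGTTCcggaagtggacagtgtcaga
Mt1 (chr8:94178975-94179027, plus strand): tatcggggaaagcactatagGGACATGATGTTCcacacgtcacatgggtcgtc
Sgk1, a kinase that raises ion channels and transporters at the membrane, was at 89.0, 105, 117 and 98.1 CPM on DR, 69.8, 96.5, 91.6 and 64.8 CPM on AL and 73.5, 65.0, 65.7 and 59.4 CPM on KD (change 0.49, adjusted p = 0.00295). DR and AL mice overlapped and DR and KD mice did not. Map3k6, a stress-activated kinase, changed by 0.89 (adjusted p = 0.000415). The metallothionein Mt1, which binds zinc and copper, was at 300.4 to 375 CPM on DR, 235 to 309.7 CPM on AL and 224 to 253 CPM on KD (change 0.41, adjusted p = 0.000593).

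Genes of lipid metabolism split by direction. Of 23 members for fatty acid oxidation, ketones and PPAR targets, 3 rose, Angptl4 and Ucp2 among them, and 1 fell (Oxct1), with a median of -0.0053 that changed sign with the mouse left out. Oxct1, an enzyme of ketone use, changed by -0.16 (adjusted p = 0.00986), a call lost without DR replicate 3. The mitochondrial carrier Ucp2 changed by 0.28 (adjusted p = 0.0198), a call lost without DR replicate 1, 3 or 4.

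Called genes of sterol and fatty acid synthesis were all lower on DR. In cholesterol biosynthesis 9 of 27 members fell and 0 rose (median -0.13), and in fatty acid synthesis 5 of 14 fell and 0 rose, where 4.13% of all genes fell. The median of the second list was -0.031, and ranged from -0.085 to -0.0073 with 1 mouse left out (without DR replicate 2 and DR replicate 1). Cyp51, lanosterol demethylase, was at 23.5, 25.1, 20.6 and 22.04 CPM on DR and 26.7 to 33.6 CPM in the other mice, a change of -0.42 (adjusted p = 0.000241). Sqle, squalene epoxidase, changed by -0.36 (adjusted p = 0.000827), and Hmgcs1, the cytosolic synthase of the pathway, by -0.26 (adjusted p = 0.000615). Those 3 enzymes passed against each diet and their DR mice were below all others. The desaturase Fads2 was at 40.4, 47.6, 43.3 and 45.8 CPM on DR, 60.5, 62.4, 59.6 and 57.2 CPM on AL and 57.4, 61.0, 52.8 and 54.2 CPM on KD. No DR mouse reached the level of the other diets, with a log2 fold change of -0.39 ± 0.049 (standard error) and an adjusted p of 0.000104. Fads1 changed by -0.33 (adjusted p = 0.000117), malic enzyme Me1, which supplies reducing power, by -0.33 (adjusted p = 0.000117) and the stearoyl desaturase Scd2 by -0.19 (adjusted p = 0.0022). The elongase Elovl6, at -0.13 (adjusted p = 0.0329), kept its call in 2 of the 12 fits that each left out 1 mouse.

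Genes of glycolysis and glucose uptake had a median of 0.0044, and 2 of 23 were lower (1 without DR replicate 3). Their called share of 8.70% was near the 8.06% of all genes. Hk2, which encodes hexokinase 2, was at 15.8, 16.7, 12.9 and 15.4 CPM on DR and 19.7 to 23.8 CPM in the other mice, without overlap and with a change of -0.50 (adjusted p = 0.00021). Ldha, lactate dehydrogenase A, changed by -0.19 (adjusted p = 0.0248) and lost its call without DR replicate 2 or 3. Nuclear genes for oxidative phosphorylation (1 of 76 higher) and mitochondrially encoded genes (1 of 13 lower) had called shares of 1.32% and 7.69%, not above the 8.06% of all genes. Their called members, Ndufv3 and mt-Nd2, kept the call in 4 and 3 of the 12 fits that each left out 1 mouse. Cytosolic ribosomal proteins had a median of 0.085 with 67 of 75 members above 0, and 2 passed (Rpl3, 0.16, adjusted p = 0.0182, and Rpl9, 0.16, adjusted p = 0.0445). Without DR replicate 1 the median was 0.0525 and 0 passed, 4 passed without AL replicate 4 or DR replicate 3, and Rpl9 kept its call in 6 of the 12 fits. For the mitochondrial ribosome 1 of 74 (Mrps9) was called.

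Chaperones were down-regulated in both compartments. Of 24 cytosolic and mitochondrial heat shock genes 16 fell and 0 rose (median -0.28), and all 24 had a value below 0. Of 23 ER genes 15 fell and 0 rose (median -0.25), where 4.13% of all genes fell. Hspa5 (ENSMUSG00000026864.13, chr2:34771970-34777547 of GRCm38.p6, plus strand), which encodes BiP, the central ER chaperone, was at 305, 316, 285 and 315 CPM on DR. AL mice were at 478, 494, 365 and 454 CPM and KD mice at 409, 423, 444 and 363 CPM. The DR mice lay close together and below the lowest of the others, KD replicate 4, with a log2 fold change of -0.49 ± 0.067 (standard error) and an adjusted p of 0.000241. Pdia4, a disulfide isomerase, was at 44.7, 50.4, 43.5 and 48.6 CPM on DR and 56.4 to 74.0 CPM elsewhere, a change of -0.51 (adjusted p = 6.52e-05). Further ER members were Pdia3 (-0.35), Hyou1 (-0.33), Pdia6 (-0.31) and Calr (-0.30), each past the threshold against AL and against KD. Herpud1 (0.025), Dnajb9 (-0.075) and Atf6 (-0.029) were not called.

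The ER stress response element, spelled CCAAT, any 9 bases and CCACG and read on both strands, was found in 23 of 12547 tested genes with a promoter (0.183%), in 9 of 585 down-regulated genes (1.54%) and in 8 of the 14 called ER members. It was in 2 of 559 up-regulated genes. Stretches of 5 of these 8 promoters are shown 5′ to 3′ on the strand of the gene, from RefSeq (GRCm38.p6), with the element in capitals, to show its spelling in called members. In Calr the capitals begin with CGTGG because its element lies on the other strand.
Hspa5 (chr2:34772020-34772048, plus strand): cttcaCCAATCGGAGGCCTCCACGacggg
Calr (chr8:84847055-84847113, minus strand): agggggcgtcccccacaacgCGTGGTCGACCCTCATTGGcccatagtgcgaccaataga
Pdia6 (chr12:17266471-17266529, plus strand): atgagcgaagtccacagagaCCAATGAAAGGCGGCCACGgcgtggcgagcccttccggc
Canx (chr11:50325780-50325838, minus strand): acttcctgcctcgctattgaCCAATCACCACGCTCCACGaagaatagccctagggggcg
Dnajc3 (chr14:118937807-118937865, plus strand): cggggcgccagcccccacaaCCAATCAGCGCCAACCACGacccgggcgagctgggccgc
Canx, a lectin chaperone, changed by -0.19 (adjusted p = 0.0107) and Dnajc3, a co-chaperone of BiP, by -0.19 (adjusted p = 0.00454). A match of this kind is a description of the sequence only.

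In the cytosol the largest relative changes were those of the inducible Hsp70 genes Hspa1a (-0.97, adjusted p = 0.000827) and Hspa1b (-0.95, adjusted p = 0.00163), near-identical copies between which reads may be divided. Hsph1, a nucleotide exchange factor of Hsp70, was at 143, 157, 126 and 158 CPM on DR, 244, 228, 160.1 and 251 CPM on AL and 201, 175, 225 and 202 CPM on KD. AL replicate 3 came within a few CPM of the highest DR mouse, and the change was a log2 fold change of -0.53 ± 0.096 (standard error) and an adjusted p of 0.00243. The abundant Hsp90ab1 was at 1164 to 1370.0 CPM on DR and 1402 to 1777 CPM elsewhere, a change of -0.35 (adjusted p = 0.00122), and Fkbp4, Chordc1 and Stip1, which work with Hsp90, changed by -0.28, -0.28 and -0.30. The small heat shock protein Cryab, an oligodendrocyte and astrocyte transcript, changed by -0.62 (adjusted p = 0.000415), with 17% of its exonic bases shared with another gene. In 15 of 15 called ER genes and 16 of 16 called heat shock genes each DR mouse was below the mean of the 8 others. These genes had been called lower in the same mice, so this is not a separate result. The heat shock element, spelled GAA, any 2 bases, TTC, any 2 bases and GAA, was in 0.598% of genes and in 4 of 12 called heat shock members with a promoter. Down-regulated genes held it in 4 of 585 (0.684%), near the share of all genes, and up-regulated genes in 2 of 559 (0.358%). The mitochondrial chaperonin genes Hspd1 (-0.22, adjusted p = 0.0127) and Hspe1 (-0.25, adjusted p = 0.0152), which neighbour each other head to head, share the match, shown for each on its own strand with the overlapping matches in capitals. Both calls were lost without DR replicate 3.
Hspd1 (chr1:55088054-55088081, minus strand): gggccTTCCGGAAGGTTCTAGAAcggac
Hspe1 (chr1:55088054-55088081, plus strand): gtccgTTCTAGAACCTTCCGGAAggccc

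**Figure D4:**
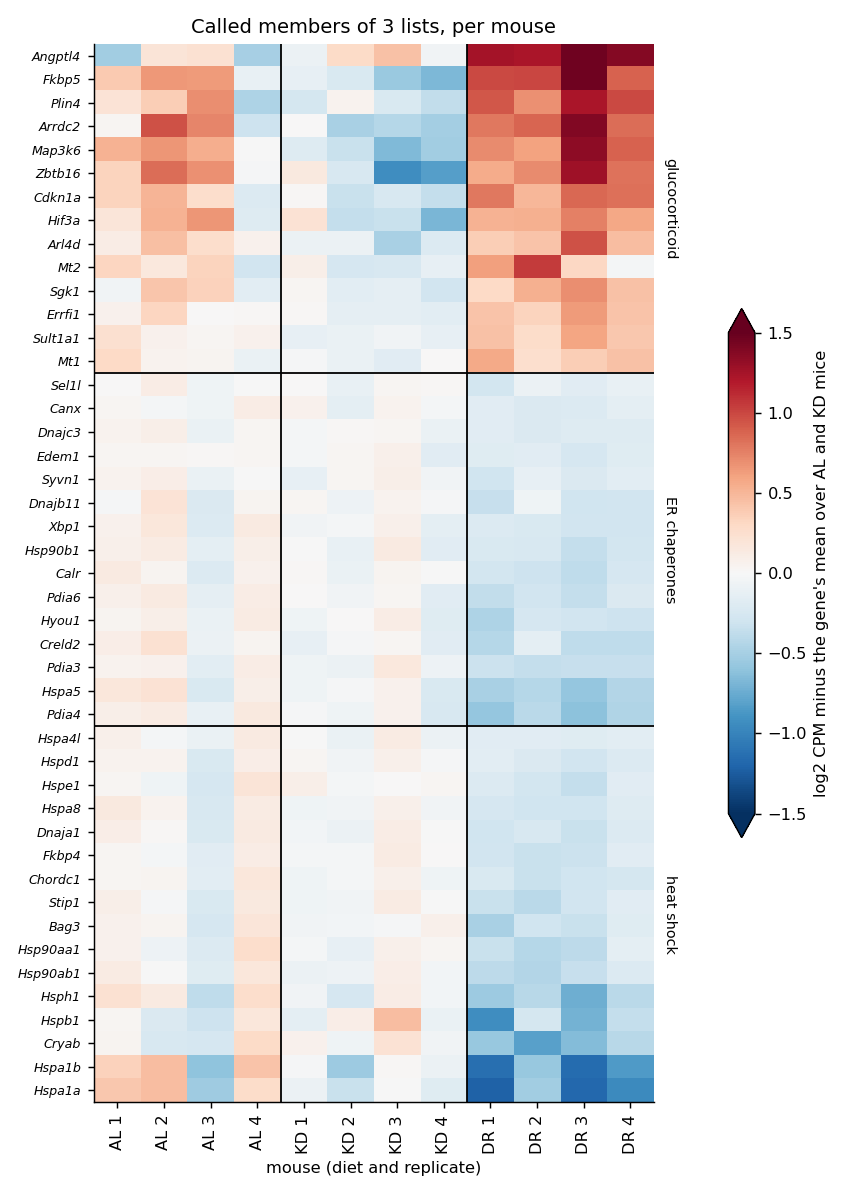
Log2 CPM of each mouse minus the gene's mean over the 8 AL and KD mice (colour) for the called members of 3 lists (14 glucocorticoid-responsive, 15 ER and 16 heat shock genes), 1 column per mouse. The DR columns are red in the first block, except for Mt2 in DR replicate 4. KD columns are bluer than AL columns in most rows there, and DR columns are blue in the other blocks, where AL replicate 3 is the bluest of the AL mice.

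Cold-inducible and splicing genes formed a single list, in which 3 of 16 rose and 0 fell. Its called share was 18.8%, against 8.06% of all genes. Cirbp (ENSMUSG00000045193.13, chr10:80165985-80172786 of GRCm38.p6, plus strand), an RNA-binding protein that rises when body temperature falls, was at 96.1, 109.7, 107 and 98.0 CPM on DR, 61.2, 70.0, 83.0 and 61.3 CPM on AL and 79.3, 80.8, 65.9 and 73.8 CPM on KD. DR mice were above all others, with a log2 fold change of 0.51 ± 0.07 (standard error) and an adjusted p of 0.000241. Rbm3, its close relative, was not called (0.095, adjusted p = 0.283), while the splicing kinase Clk1 (0.20, adjusted p = 0.00528) and the splicing factor Srsf5 (0.15, adjusted p = 0.0128, lost without DR replicate 3) were. Of 22 clock genes 1 rose and 1 fell, with 0 lower without DR replicate 1 or 4, 3 without KD replicate 4 and 6 without DR replicate 2. The called share of the clock list was 9.09%, near the 8.06% of all genes. Per2, a core repressor of the clock, was at 95.9, 133, 126 and 110.3 CPM on DR, 157, 165, 126 and 156 CPM on AL and 138, 154, 161 and 123 CPM on KD, and the groups overlapped (change -0.35, adjusted p = 0.0166, lost without DR replicate 1 or 4). Dbp (-0.43) and Nr1d1 (-0.28) had adjusted p of 0.167 and 0.197. The killing time of each mouse is not in the labels, and its part in these genes was not tested.

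Immediate early genes, which neuronal activity induces within minutes, had 6 of 28 members lower and 1 higher (median -0.16). The shares over all genes were 4.13% lower and 3.93% higher. Beside Egr4 the called members included Egr1 (-0.34, adjusted p = 0.00312), Arc (-0.30, adjusted p = 0.0189), Nr4a1 (-0.57, adjusted p = 0.0235) and Fosl2 (-0.50, adjusted p = 0.0309), and Maff rose (0.77, adjusted p = 0.0119). Fos (-0.59, adjusted p = 0.154) and Npas4 (-0.59, adjusted p = 0.159) were not called. The number of lower members was 3 without DR replicate 1, 2 without DR replicate 2 or 3 and 11 without AL replicate 3, and Arc, Nr4a1, Fosl2 and Maff each lost their call with at least 1 mouse left out.

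Called genes of neuronal signaling were lower on DR with 1 exception among the channels. Among glutamate receptors 5 of 24 fell and 0 rose (median -0.11, -0.0522 without DR replicate 1), and all 5 passed against each diet with no overlap. Of all genes, 4.13% were called lower, 1.1% were lower against each diet and 2.91% had the 4 DR mice below all 8 others. The AMPA receptor subunit Gria1 was at 483, 504, 536 and 553 CPM on DR and 574 to 643 CPM elsewhere, a change of -0.22 (adjusted p = 0.00162). Gria4 changed by -0.18 (adjusted p = 0.00375), and the NMDA receptor subunits Grin2b and Grin2a by -0.31 (adjusted p = 0.00108) and -0.18 (adjusted p = 0.00484). In contrast, Gria2 (0.067), Grin1 (-0.034) and Grin2c (0.039) were not called. Of 12 GABA-A receptor genes 2 fell. Gabra2 was at 65.8, 63.1, 69.9 and 72.3 CPM on DR, 90.3, 102, 90.1 and 92.7 CPM on AL and 92.5, 81.1, 92.8 and 88.1 CPM on KD, without overlap and with a log2 fold change of -0.43 ± 0.048 (standard error) and an adjusted p of 4.78e-05. Gabra4 changed by -0.32 (adjusted p = 0.0139), lost without DR replicate 1, 3 or 4.

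Scaffolds of the postsynapse had 4 of 19 members lower (median -0.11, -0.0305 without DR replicate 1), with Shank2 (-0.23, adjusted p = 0.00366) as the one that held with each mouse left out, and 1 lower without DR replicate 2 or 2 without DR replicate 3. For voltage-gated calcium channels 3 of 16 were lower (5 without DR replicate 4), among them the T-type subunit Cacna1i (-0.24, adjusted p = 0.00247). Potassium, sodium and HCN channels had 10 of 87 lower and 1 higher, a called share of 12.6% against 8.06% of all genes, and 5 or 6 lower without DR replicate 1, 2 or 3. The pacemaker channel Hcn2 changed by -0.20 (adjusted p = 0.00721). In calcium release and pumping 7 of 23 fell, 4 without DR replicate 3. Ryr1, a release channel of the ER, was at 98.4, 90.5, 105 and 119.8 CPM on DR and 125 to 142 CPM elsewhere, a change of -0.34 (adjusted p = 0.00123), and the pump Atp2a2 changed by -0.18 (adjusted p = 0.0036). Itpr1, the inositol trisphosphate receptor of Purkinje cells, ranged from 3325 to 4226 CPM on DR against 4167 to 4637 CPM elsewhere, with overlap (change -0.20, adjusted p = 0.0162, lost without DR replicate 1 or 2).

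Matrix genes moved in both directions. Of 34 members 3 rose (Fbln5, Sparc and Hapln2, the last called in 5 of the 12 fits that each left out 1 mouse) and 4 fell, Tnc and the related Tnr (-0.27, adjusted p = 0.00259) among them, and 2 fell without AL replicate 4, DR replicate 1, KD replicate 1 or KD replicate 3. The called share was 20.6%, against 15.4% of collagens, 10.7% of integrins and 8.06% of all genes. Sparc, a collagen-binding protein of vessels and glia, was at 971, 883, 965 and 1006 CPM on DR and 643 to 816 CPM elsewhere, a change of 0.37 (adjusted p = 0.000213). Collagens had 5 of 39 lower and 1 higher (3 lower without DR replicate 3). Col9a2 was at 14.4, 12.4, 14.6 and 15.1 CPM on DR and 19.1 to 22.8 CPM elsewhere, a change of -0.52 (adjusted p = 4.78e-05), and Col5a3 rose (0.54, adjusted p = 0.00049). Among integrins 3 of 28 fell, 1 without DR replicate 1 or 4, with Itgb3 at -0.80 (adjusted p = 0.00366).

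In the sonic hedgehog pathway, through which Purkinje cells signal to Bergmann glia and granule cells, 5 of 13 members fell and 0 rose (median -0.19). Among all genes 4.13% fell. The feedback inhibitor Hhip was at 3.37, 4.65, 4.49 and 4.32 CPM on DR and 5.59 to 7.90 CPM elsewhere, a change of -0.67 (adjusted p = 0.0011). The receptor Ptch1, which is also a pathway target, changed by -0.21 (adjusted p = 0.007) and the effector Gli1 by -0.30 (adjusted p = 0.0224), lost without DR replicate 3. Shh itself (-0.085, adjusted p = 0.734) and Smo (-0.13, adjusted p = 0.187) were not called. Proliferation genes had 3 of 16 lower, all at a mean under 2 CPM, and 1 of 16 by DESeq2. Top2a, a topoisomerase of dividing cells, was at 0.0255, 0.0936, 0.144 and 0.137 CPM on DR, 0.468, 0.516, 0.459 and 0.507 CPM on AL and 0.572, 0.171, 0.465 and 0.386 CPM on KD, the largest relative decrease of all called genes (log2 fold change -2.13, adjusted p = 0.0034, not called by DESeq2). E2f1 changed by -0.76 (adjusted p = 0.00291), Mki67 was not called by DESeq2 and kept its call in 2 of the 12 fits that each left out 1 mouse, and Pcna and the 6 tested Mcm genes were not called.

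Called shares of the DNA repair lists were 9.09% for mismatch and crosslink repair, 15% for nucleotide excision repair and 10.5% for base excision repair, against 8.06% of all genes. In the first list 2 of 22 rose (1 without AL replicate 1, 2 or 4, DR replicate 1 or 3, or KD replicate 3) and 18 had a value above 0 (median 0.15). Mlh3, a mismatch repair factor, was at 28.2, 27.8, 26.6 and 27.4 CPM on DR, 22.1, 21.7, 22.1 and 24.1 CPM on AL and 23.0, 23.8, 23.4 and 23.5 CPM on KD, without overlap (change 0.26, adjusted p = 0.00121). Nucleotide excision repair had 3 of 20 higher, led by the damage sensor Ddb2 (0.29, adjusted p = 0.0111, lost without DR replicate 3), and 0 without DR replicate 3 or 1 without AL replicate 1, DR replicate 4 or KD replicate 1 or 4. Base excision repair had 1 higher and 1 lower of 19. The glycosylase Mpg was at 10.9 to 12.1 CPM on DR and 7.65 to 9.47 CPM elsewhere (change 0.41, adjusted p = 0.00132), with 36% of its exonic bases shared with a neighbour, and the call of Parp1 (-0.11, adjusted p = 0.0492) held in 1 of the 12 fits that each left out 1 mouse.

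Called members of the antioxidant list and of the insulin, IGF, mTOR and FoxO list were all higher on DR. Of all genes, 3.93% were higher and 4.13% lower. Of 31 antioxidant genes 6 rose, Gpx3 first, with the thioredoxin-binding protein Txnip (0.91, adjusted p = 0.00482), the glutathione transferase Gstm1 (0.21, adjusted p = 0.0122) and glutathione synthetase Gss (0.15, adjusted p = 0.0157, lost without DR replicate 3) among them. Mt1 and Mt2 are counted here and in the glucocorticoid list. Mt2 kept its call in 2 of the 12 fits that each left out 1 mouse. In insulin, IGF, mTOR and FoxO signaling 5 of 31 rose, 3 without DR replicate 3. They included Igfbp5, which binds insulin-like growth factors (0.35, adjusted p = 0.00226), the adaptor Irs2 (0.23, adjusted p = 0.00278) and the transcription factor Foxo1 (0.47, adjusted p = 0.00401). Foxo1 was at 26.3 to 31.95 CPM on DR, 19.0 to 27.1 CPM on AL and 16.3 to 20.8 CPM on KD, so that DR and AL mice overlapped. Sirtuin and NAD genes had 2 of 18 higher (Sirt4, 0.19, adjusted p = 0.00672, and Nmrk1, called in 4 of the 12 fits that each left out 1 mouse), autophagy and lysosome 1 higher and 1 lower of 23 (the lower one, Tfeb, called in 1 of those fits), and ATF4 targets 1 higher and 2 lower of 20, with Aldh1l2 at -0.47 (adjusted p = 0.000652). For thyroid hormone handling, Hr rose and Dio2, the enzyme that activates the hormone, fell (-0.32, adjusted p = 0.00699). Interferon and inflammation genes had 1 higher (C4b, 0.78, adjusted p = 0.00265) and 2 lower of 17. The lower ones, H2-K1 and Ifit3, kept their calls in 5 and 3 of the 12 fits that each left out 1 mouse, with 0 lower without AL replicate 1 or 2, DR replicate 1 or 4, or KD replicate 1 or 4, and 4 without AL replicate 3. In the fit of all mice 0 of 12 hypoxia genes were called by edgeR (0 by DESeq2, 3 at an unadjusted p under 0.05).

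**Figure D5:**
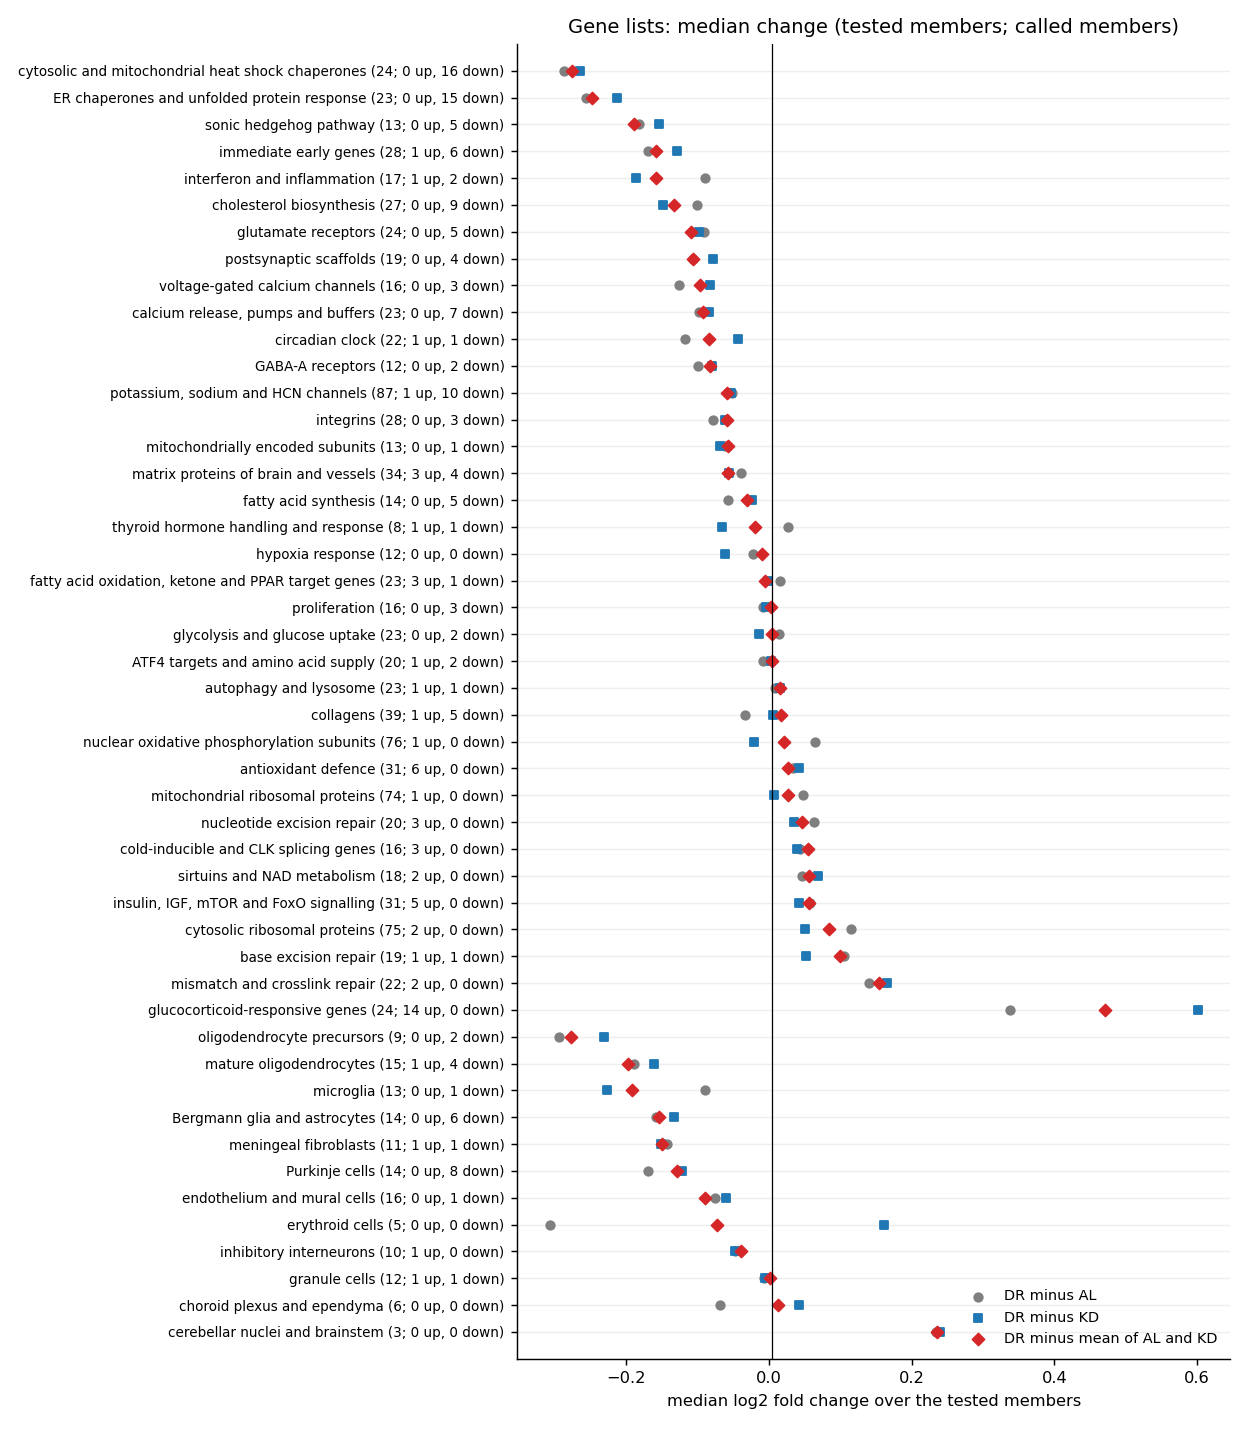
Median log2 fold change over the tested members of each gene list (upper block) and cell type marker list (lower block) for DR against the mean of AL and KD, against AL and against KD (x axis), with the vertical line at the median of all genes and the numbers of tested, higher and lower members at the left. Chaperone lists lie furthest to the left of the gene lists and the glucocorticoid list furthest to the right, where its values against AL and KD are 0.34 and 0.60.

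Markers of Purkinje cells and of Bergmann glia were lower in sum on DR, and called oligodendrocyte markers were lower with 1 exception. In a bulk sample, fewer cells of a type and less RNA per cell cannot be told apart. Purkinje cell markers had 8 of 14 lower and 0 higher (median -0.13, 4 lower without DR replicate 2), where 4.13% of all genes were lower. Their summed level was 7752 to 8993 CPM on DR, 9310.0 to 9885 on AL and 9115 to 9421 on KD, without overlap. Itpr1 alone made up a large part of this sum. Its own levels overlapped between DR and the others, and its call was lost without DR replicate 1 or 2. Car8, which regulates the inositol trisphosphate receptor, was at 861 to 1039 CPM on DR and 1113 to 1186 CPM elsewhere (change -0.24, adjusted p = 0.00221). In contrast, Pcp2 (-0.062), Ppp1r17 (-0.064) and Skor2 (0.04) of the same cells were not called. Some members, Itpr1, Atp2a3 and Homer3 among them, belong both to this list and to the signaling lists above, so these decreases are counted in both. The part of Purkinje cell RNA in the lower signaling genes was not tested.

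Bergmann glia and astrocyte markers had 6 of 14 lower (median -0.15), against 4.13% of all genes. Their summed levels were 3264 to 3461 CPM on DR, 3623 to 3800.5 on AL and 3519 to 3686 on KD, again without overlap. Aqp4, the water channel of astrocytic end feet, changed by -0.48 (adjusted p = 0.000127), the lipid carrier Fabp7 by -0.70 (adjusted p = 0.00116) and the glutamate transporter Slc1a3 by -0.14 (adjusted p = 0.0196), the last lost without DR replicate 2 or 3. Tnc and the hedgehog targets are also transcripts of these cells, and the part of cell number in them was not tested. Oligodendrocyte markers had 4 of 15 lower and 1 higher, Hapln2, which was called in 5 of the 12 fits that each left out 1 mouse (median -0.20). Their summed level was 2318 to 2861 CPM on DR, 2477 to 3125 on AL and 2719 to 2942 on KD, with overlap. In precursors 2 of 9 fell, with Gpr17, a receptor of cells about to differentiate, at 18.9, 15.9, 20.5 and 17.8 CPM on DR and 22.9 to 30.5 CPM elsewhere (change -0.50, adjusted p = 0.000615), whereas Pdgfra (-0.011) and Olig2 (-0.11) were not called.

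Granule cell markers had 1 of 12 higher and 1 lower (median 0.00094), with Fat2 and Cbln3 called in 9 and 6 of the 12 fits that each left out 1 mouse, and interneuron markers 1 of 10 higher. That gene, Lgi2, was at 188, 189.9, 197 and 196 CPM on DR, 155, 145, 153 and 144 CPM on AL and 145, 166, 159 and 164 CPM on KD, without overlap and with a log2 fold change of 0.32 ± 0.039 (standard error) and an adjusted p of 7.42e-05. Markers of microglia had 1 of 13 lower (0 without DR replicate 1, 2 or 3) and those of endothelium and mural cells 1 of 16 lower. Meningeal fibroblast markers had 1 higher and 1 lower of 11. Of all genes 8.06% were called, the share to set beside these counts and those of granule cells and interneurons. The called endothelial gene, Itm2a, was at 15.6, 16.3, 17.5 and 14.5 CPM on DR and 22.3 to 28.3 CPM elsewhere (change -0.65, adjusted p = 2.7e-05). Haemoglobin genes varied between mice of one diet (summed level 176 to 494 CPM on DR). Without DR replicate 2, 4 of 5 erythroid markers were lower, with a median of -0.536. With all mice 0 of 5 erythroid markers, 0 of 6 choroid plexus markers and 0 of 3 nuclear or brainstem markers were called by edgeR (0 by DESeq2 and 0 at an unadjusted p under 0.05 in each).

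Gene length and level moved with the contrast. Over 5 equal bins of genes by exonic length the median log2 fold change went from 0.039 in the shortest through 0.030, 0.0056 and -0.0037 to -0.022 in the longest, and called genes were 75 higher and 47 lower in the shortest bin but 161 higher and 293 lower in the longest. By level, medians went from 0.056 in the lowest of 5 bins of mean CPM to -0.019 in the highest, where 171 genes were higher and 301 lower. The part of these shifts in the lower lists of neuronal genes was not tested.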

How the data were processed

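Gene counts of 12 libraries were used as deposited by the authors, who trimmed reads with Trimmomatic 0.39, aligned them to GRCm38.p6 with STAR 2.7.0f (GENCODE annotation) and counted reads per gene with featureCounts of Subread 1.6.4, per the study's methods and the submitters' processing notes. The libraries were poly(A) selected, and the strand setting of the counting is not given in the sources used here, so reads of overlapping and antisense genes cannot be told apart. The deposited table holds counts of 54752 genes, without normalization. Groups came from the diet label of each sample. Replicate numbers were given in accession order and are names only. Nothing in the labels gives a cage, litter or batch, so that p-values measure the spread between these mice. Replicates differed by more than sampling noise in all 18 pairs within a diet (chi-square per gene 4.95 to 11.6).

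Genes were filtered with filterByExpr of edgeR 4.0.16 (R 4.3.3), which left 19557, scaled by the trimmed mean of M values (factors 0.991 to 1.02) and tested with the quasi-likelihood test in 1 fit with a mean per diet. The authors used filterByExpr too, and a filter at a mean of 10 CPM was run as an alternative. The contrast was the DR mean minus the average of the AL and KD means, p-values were adjusted by Benjamini-Hochberg over all genes tested, and a call is an adjusted p under 0.05. CPM values are counts scaled to a common library total, and log2 values for the principal components used a prior count of 2. Alternatives were DESeq2 1.42.0, limma 3.58.1 (voom), other scalings and filters, AL and KD as 1 group, and each mouse left out in turn. The script was tested on simulated data.

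The comparison, the gene lists and the marker lists were chosen with earlier results of these data known. Named are the 12 called genes with the largest change in each direction at a mean of at least 1 CPM, with at most 10% of exonic bases shared with another gene and no overlap between the 4 DR mice and the 8 others, the 5 such genes at 100 CPM or more, and up to 6 called members of each list by adjusted p. Other list members, those without a call and those shown for their promoter were named after their values were seen, and some genes chosen by the rule are not reported here. Promoter sequences are from RefSeq. The number of reads per library limits the precision of genes of low level most.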

Additional observations from a re-analysis of the deposited data

Results flagged for a closer look

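The levels of the 47 genes given mouse by mouse, and the total counts, were searched for mice that stand apart from the other 3 of their diet by Dixon's ratio, the gap to the nearest mouse over the range. One value of 144 groups of 4 passed, where chance alone gives about 1 in 20. Mlh3 in AL replicate 4 was at 24.1 CPM, while the other 3 AL mice were between 21.7 and 22.1 CPM. This mouse was still below the lowest DR mouse, at 26.6 CPM, and Mlh3 kept its call on DR without it.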

How the results depend on the processing

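Against the mean of AL and KD the count of 1576 genes stayed within 1.5 times under the other tools, scalings and filters (1254 at a mean of 10 CPM or more to 1987 without a filter, with 1971 by DESeq2), and so did both directions. With 1 mouse left out it ranged from 895 to 1718, from 440 to 887 for higher and from 455 to 831 for lower genes. Genes different from each diet numbered 617 by DESeq2 (255 higher, 362 lower) and 767 without a low-count filter (349 and 418). With 1 mouse left out they numbered 154 to 430 (70 to 202 higher, 84 to 228 lower). Genes different from AL numbered 1336 by DESeq2, 1388 without a filter, 583 in a fit of the AL and DR mice alone and 454 to 968 with 1 mouse left out. Genes different from KD numbered 1392 by DESeq2, 1510 without a filter and 449 to 1073 with 1 mouse left out. KD and AL differed in 2 genes by DESeq2, 111 without a filter and 0 to 4 with 1 mouse left out (4 without AL replicate 4, 1 without DR replicate 2). DR was not apart on the first component on CPM without log (exact permutation p = 0.263) or with 500 genes (p = 0.671) in the exact permutation test, and with 1 mouse left out its p ranged from 0.00606 to 0.0242. The smallest p this test can give is higher with fewer mice. Without DR replicate 2 (exact permutation p = 0.0242) DR was not apart, with a lowest DR score of 10.7 and a highest AL score of 11.9. The cause of the differences between settings in these counts and scores was not tested. The 176 genes with a call named by the rule did not change direction in any of the fits. Their calls held in 1856 of 2112 values with 1 mouse left out and in 1508 of 1540 under the other settings. No paired analysis was possible because the labels give no replicate numbers. The total counts allow small changes to be called in abundant genes, and genes of low level such as Top2a, not called by DESeq2, rest on few reads.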
